A study of Homo sapiens with 6 samples.

Results

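The 44 genes described here belong to the 2 stress responses that human cells mount against misfolded protein, 17 to the heat shock response and 27 to the response to stress of the endoplasmic reticulum (ER). They were chosen by name, and each of the 44 names matched exactly 1 of the 58735 genes in the deposited count table. All 44 passed the filter on low counts, which left 15054 genes for testing. Their mRNA was measured by RNAseq in C4-2B, a human cell line of castration resistant prostate cancer, and in RC4-2B, a subclone of it that is resistant to cabazitaxel (CBZ). Each line had 3 libraries that the labels call biological replicates. CBZ is a taxane, a drug that binds tubulin and blocks the disassembly of microtubules. RC4-2B had been selected from C4-2B over 4 months by repeated exposures of 72 h to CBZ, each followed by recovery, at concentrations that went from 0.1 nM to 20 nM. Both lines were grown in RPMI-1640 with 10% fetal bovine serum per the labels, while the methods name charcoal-stripped serum as well. RC4-2B is 1 subclone, so the effect of the selection and any other difference of this subclone from its parent cannot be told apart.

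Library totals ran from 15707134 to 18052517 counts, so that 3 counts correspond to 0.170 to 0.188 CPM (counts scaled to a library total of 1000000). ABCB1, the drug efflux pump that marks resistance in this series, had 0 or 1 counts in the C4-2B libraries and 10742 to 15948 counts in the RC4-2B libraries. Of the markers of the labelled cell type, EPCAM, KRT8 and KRT18 were between 35.4 and 73.4 FPKM (fragments scaled to gene length and library total) in every library. FOLH1 was between 142 and 224 FPKM in every library. KLK3 was between 178 and 198 FPKM in C4-2B and between 6.35 and 11.5 FPKM in RC4-2B. KLK2 was between 32.3 and 34.3 FPKM in C4-2B and between 11.2 and 23.8 FPKM in RC4-2B. TMPRSS2 was between 25.1 and 28.8 FPKM in C4-2B and between 10.1 and 14.7 FPKM in RC4-2B. The leukocyte markers PTPRC, CD3E, CD68 and LYZ did not exceed 0.117 FPKM in any library. Of the fibroblast markers, COL1A2, DCN and LUM were listed at 0 throughout, COL1A1 was between 1.93 and 3.33 FPKM and PDGFRB between 0.262 and 0.408 FPKM. Of the endothelial markers, PECAM1 was listed at 0 throughout, CDH5 did not exceed 0.00878 FPKM and VWF was between 0.317 and 0.707 FPKM.

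RC4-2B replicate 2 stood apart from the other 5 libraries, and the fold changes below are given with and without it. The SD of the log2 difference between 2 libraries of a line was 0.166 to 0.244 for the 4 pairs without this library and 0.551 and 0.628 for the 2 pairs with it. Its deviations followed the GC content of the genes. The log2 difference of 2 libraries, higher minus lower replicate number, was set against GC content across the better expressed genes. Spearman's rho was -0.75 and 0.67 for the pairs with replicate 2. Pairs without it were not free of a trend, at -0.38 for RC4-2B replicates 1 and 3 and -0.30, -0.27 and -0.04 among the C4-2B libraries. The trend of RC4-2B replicate 2 was also seen among the members. Of the 16 members whose longest transcript had under 45% GC, replicate 2 was the highest RC4-2B library in 13 and the lowest in 2. Of the 12 members over 55% GC, it was the highest in 1 and the lowest in 10. Across the 44 members, which share the same 3 libraries, Spearman's rho between GC content and the log2 ratio of replicate 2 to the other RC4-2B libraries was -0.64. ASNS and HSPE1 were exceptions, with low GC content and their lowest value in this library.

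**Figure D1:**
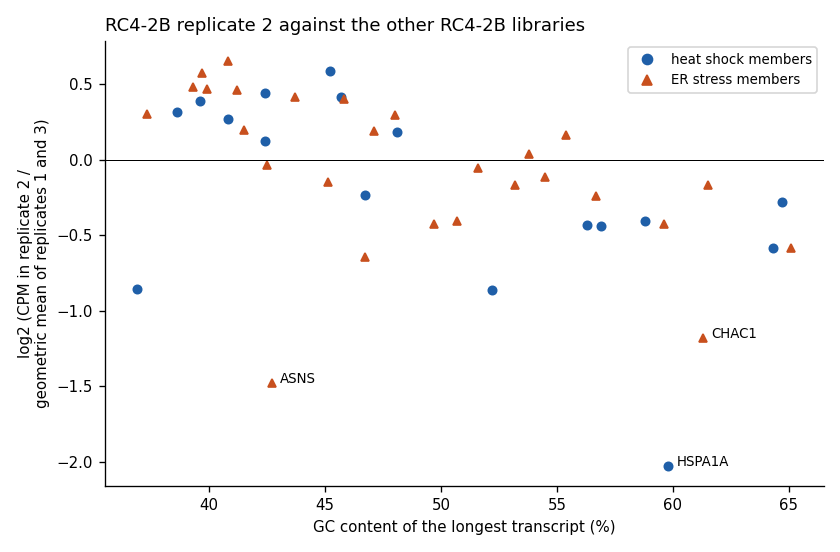
Each point is 1 of the 44 members, with the GC content of its longest transcript (%) on the x axis and, on the y axis, the log2 ratio of its CPM in RC4-2B replicate 2 to the geometric mean of RC4-2B replicates 1 and 3. Circles are heat shock members and triangles ER stress members. Most members with low GC content lie above 0 and most with high GC content below 0, and HSPA1A, ASNS and CHAC1 lie farthest below.

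Misfolded protein in the cytosol releases the transcription factor HSF1 from its chaperones, and HSF1 then binds heat shock elements in the promoters of chaperone genes such as those of the HSP70 and HSP90 families. Misfolded protein in the ER lumen is sensed by IRE1 (encoded by ERN1), ATF6 and PERK (encoded by EIF2AK3). IRE1 splices the mRNA of XBP1, ATF6 is cleaved to a transcription factor, and both act on ER stress elements of chaperone genes. PERK phosphorylates the translation factor eIF2-alpha, as do the kinases that sense amino acid shortage and other stresses, and the transcription factor ATF4 is then translated and acts on C/EBP-ATF elements of genes for amino acid synthesis and transport. Splicing of XBP1, cleavage of ATF6 and translation of ATF4 are not measured by gene counts.

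The elements were searched as letters, on both strands, in RefSeq promoter windows from 250 bases before to 50 bases after a transcription start (GRCh38.p14). Windows were on hand for 41 of the 44 members. A heat shock element of 2 units (GAANNTTC or TTCNNGAA, where N is any base) was in a window of 11 of 15 heat shock members (73.3%), against 2 of 26 ER stress members (7.69%) and 16.2% of 27305 genes with a window. With 3 alternating units, which contain the 2-unit letters, the element was in 5 of 15 heat shock members and in 0.608% of all genes. These 5 were HSPA8, DNAJA1, HSP90AA1, HSP90AB1 and HSPD1. The ER stress element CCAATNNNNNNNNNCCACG was in 7 of the 19 members of the ER lumen, ER-associated degradation and sensor groups (36.8%), in 0 of 15 heat shock members and in 25 of all genes (0.0916%). The 7 were HSPA5, HSP90B1, CALR, CANX, PDIA6, CRELD2 and XBP1. The unfolded protein response element TGACGTGG was in HYOU1 alone among the members. The C/EBP-ATF element (TTGCATCA or TTTCATCA) was in 2 of the 7 members of the ATF4 branch, ASNS and CHAC1, and in HERPUD1, against 2.44% of all genes. A match describes the letters of a window and was not tested as a binding site.

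A gene was counted if any of its windows held the letters. Upstream sequence is shown for the members on which the results turn, 5′ to 3′ on the gene's own strand and with the matched element in capitals, as 250 bases before the start, less bases in exons of protein-coding GENCODE transcripts, or as the element with 5 bases on each side where such an exon covers it. For the ATF4 branch these are ASNS and CHAC1, its genes with the largest differences, and the capitals mark the C/EBP-ATF element.
ASNS, chr7:97872464-97872481, minus strand: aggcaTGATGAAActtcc
CHAC1, chr15:40953257-40953274, plus strand: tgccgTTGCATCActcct

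For the ER these are the chaperones HSPA5 and HSP90B1 and the transcription factor XBP1, whose fold changes differed in sign, and the capitals mark the ER stress element, of which the first of 2 in HSP90B1 is shown.
HSPA5, chr9:125241383-125241593, minus strand: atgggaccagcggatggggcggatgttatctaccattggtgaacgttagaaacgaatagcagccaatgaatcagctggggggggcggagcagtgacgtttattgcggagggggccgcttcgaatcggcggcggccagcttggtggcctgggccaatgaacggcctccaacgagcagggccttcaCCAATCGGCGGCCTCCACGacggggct
HSP90B1, chr12:103930211-103930239, plus strand: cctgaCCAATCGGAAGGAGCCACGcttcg
XBP1, chr22:28800598-28800819, minus strand: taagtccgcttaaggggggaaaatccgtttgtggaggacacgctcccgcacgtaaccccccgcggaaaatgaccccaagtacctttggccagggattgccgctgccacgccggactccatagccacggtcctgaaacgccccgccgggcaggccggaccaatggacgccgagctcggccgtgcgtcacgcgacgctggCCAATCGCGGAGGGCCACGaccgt

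For the heat shock response these are the inducible pair HSPA1A and HSPA1B, and also HSPB8 and HSP90AA1. The upstream stretches shown for the pair had 235 of 249 aligned bases identical. HSPB8 and HSP90AA1 were each called in 8 of 21 alternative fits, the most among the heat shock members. The capitals mark heat shock elements. Of the 3 matches of 2 units in HSP90AA1, the first 2 overlap and the last stands apart.
HSPA1A, chr6:31815293-31815542, plus strand: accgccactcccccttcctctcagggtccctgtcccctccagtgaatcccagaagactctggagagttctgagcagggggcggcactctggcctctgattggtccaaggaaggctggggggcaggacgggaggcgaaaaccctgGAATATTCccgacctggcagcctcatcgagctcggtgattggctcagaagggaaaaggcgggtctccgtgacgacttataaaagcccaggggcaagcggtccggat
HSPA1B, chr6:31827488-31827737, plus strand: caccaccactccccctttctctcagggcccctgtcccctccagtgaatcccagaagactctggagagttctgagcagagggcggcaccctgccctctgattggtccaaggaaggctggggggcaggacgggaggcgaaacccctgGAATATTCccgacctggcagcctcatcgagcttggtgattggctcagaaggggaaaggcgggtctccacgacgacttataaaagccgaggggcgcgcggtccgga
HSPB8, chr12:119178681-119178930, plus strand: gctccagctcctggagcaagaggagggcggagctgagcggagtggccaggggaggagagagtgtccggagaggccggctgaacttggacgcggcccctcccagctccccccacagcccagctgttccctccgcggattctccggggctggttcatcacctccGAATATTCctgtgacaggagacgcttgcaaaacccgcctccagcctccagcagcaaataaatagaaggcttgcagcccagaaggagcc
HSP90AA1, chr14:102087045-102087294, minus strand: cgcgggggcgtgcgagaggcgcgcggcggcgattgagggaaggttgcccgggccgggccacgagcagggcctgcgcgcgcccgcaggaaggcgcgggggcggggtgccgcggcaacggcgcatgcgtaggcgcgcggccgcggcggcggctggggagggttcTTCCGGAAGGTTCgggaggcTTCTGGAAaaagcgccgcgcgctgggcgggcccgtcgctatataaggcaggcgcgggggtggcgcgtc

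The members spanned the range from scarce to very abundant mRNA. By mean FPKM over the 6 libraries, which is scaled to gene length, 6 heat shock and 7 ER stress members were at 100 FPKM or above, 8 and 11 were between 10 and 100 FPKM, 1 and 9 between 1 and 10 FPKM, and 2 and 0 below 1 FPKM. HSP90AB1, the constitutive cytosolic HSP90, was the highest in every library, at 1115 ± 18.9 FPKM in the parental and 1254 ± 123 FPKM in the resistant line (SD, n = 3). HSPB1, the main small heat shock protein, was at 760.0 ± 46.7 FPKM in the parental and 698 ± 171 FPKM in the resistant line, and the ER lectin chaperone CALR at 609 ± 15.6 FPKM in the parental and 702 ± 52.5 FPKM in the resistant line. The inducible HSP90AA1 was at 497 ± 14.7 FPKM in the parental and 787 ± 215 FPKM in the resistant line and the constitutive HSC70 gene HSPA8 at 530.0 ± 30.0 FPKM in the parental and 664 ± 139 FPKM in the resistant line. In C4-2B the ranges of HSP90AA1 (484 to 513 FPKM) and HSPA8 (512 to 565 FPKM) overlapped slightly, below those of CALR and HSPB1. In RC4-2B the ranges of HSPB1, CALR, HSP90AA1 and HSPA8 all overlapped. The highest ER chaperone after CALR was HSPA5 (BiP), at 278 ± 16.3 FPKM in the parental and 325 ± 69.1 FPKM in the resistant line. By the mean over the 6 libraries, the highest within each role were HSPA8, HSP90AB1, HSPB1, HSPD1, HSF1, CALR, HERPUD1, XBP1 and ATF4. The sensors ATF6, EIF2AK3 and ERN1 were all between 3.10 and 9.60 FPKM in every library. Together, the 17 heat shock members took 1.46% to 1.50% of all counts in the C4-2B libraries, against 1.67%, 1.97% and 1.69% in RC4-2B replicates 1, 2 and 3. The 27 ER stress members took 0.883% to 0.946% in the C4-2B libraries, against 1.05%, 1.12% and 0.932% in RC4-2B replicates 1, 2 and 3. The ranges of the 2 lines overlapped for the ER stress members and not for the heat shock members. These sums are dominated by the most abundant members and do not describe each gene of a group.

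**Figure D2:**
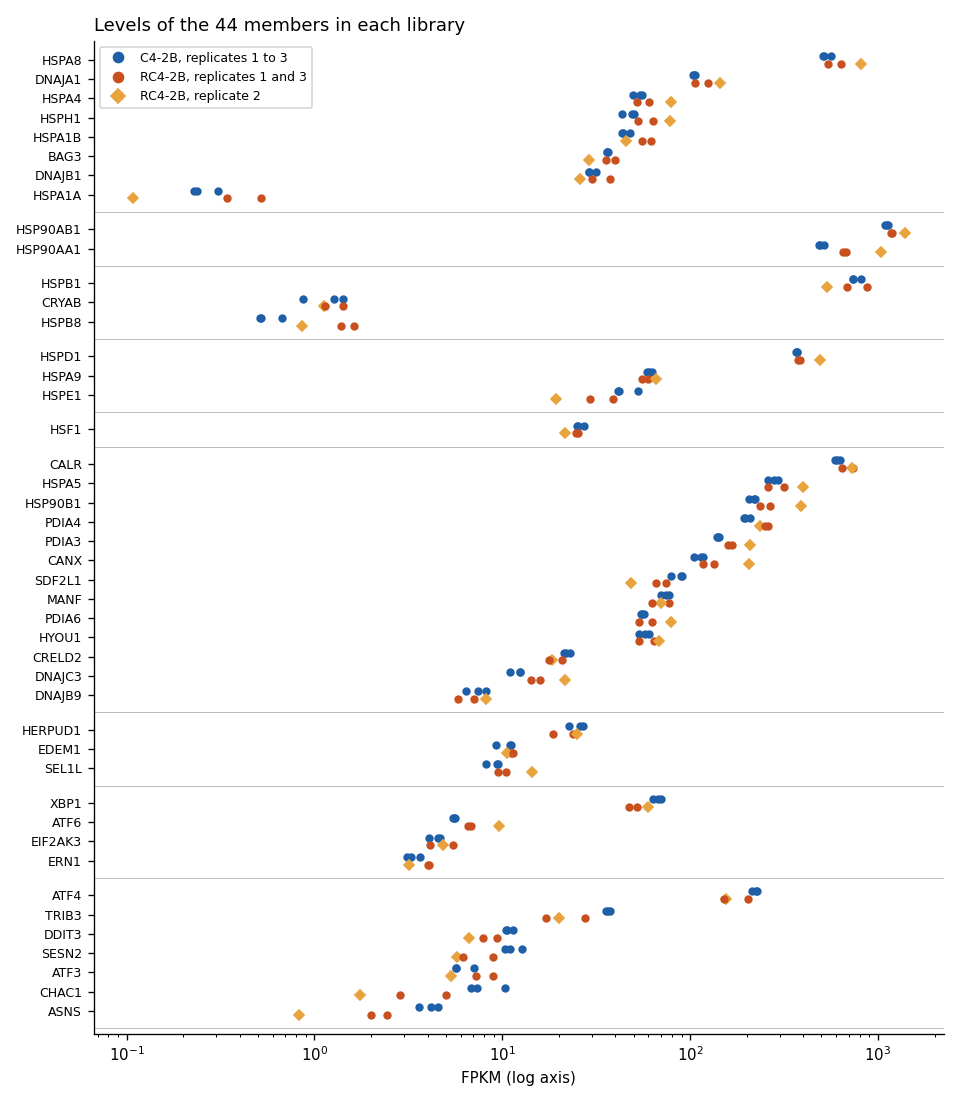
FPKM (log axis) of the 44 members, grouped by role and ordered by level within a role, with 1 point per library. C4-2B libraries are blue, RC4-2B replicates 1 and 3 red and RC4-2B replicate 2 a yellow diamond. Levels run from 0.289 FPKM for HSPA1A to 1184 FPKM for HSP90AB1 on average, and the 2 lines lie close together for most genes.

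With all 6 libraries, no member differed between the lines at an adjusted p-value under 0.05 (edgeR's quasi-likelihood test over 15054 genes with Benjamini-Hochberg adjustment), where 1.08% of all genes were called higher and 0.903% lower in RC4-2B. In these bulk cultures a lower level per cell and fewer expressing cells cannot be told apart. Before adjustment, 9 members (20.5%) were higher and 9 (20.5%) lower at a p-value under 0.05, beside 12% and 9.42% of all genes. DESeq2, the tool of the study, called HSP90AA1 and HSPB8 higher and TRIB3, ASNS, CHAC1 and SESN2 lower, where it called 3.28% of all genes higher and 2.64% lower. Without RC4-2B replicate 2, edgeR called 6 members higher (13.6%) and 7 lower (15.9%), where it called 6.5% of all genes higher and 6.02% lower. Those higher were HSPA1B, HSP90AA1, HSPB8, PDIA4, DNAJC3 and ATF3, and those lower were HSPE1, SDF2L1, XBP1, TRIB3, ASNS, CHAC1 and SESN2. In the library that was left out, 11 of these 13 lay outside the C4-2B range on the same side. The exceptions were HSPA1B, inside that range, and ATF3, below it. This is not an independent check, because the values of that library also followed GC content. The same share over all genes called in this fit was not computed. With the GC trend removed and all 6 libraries kept, HSPA1B, HSP90AA1, HSPB8 and PDIA4 were called higher and XBP1, ASNS and CHAC1 lower, where 4.36% and 3.25% of all genes were called. HSP90AA1, HSPB8, ASNS and CHAC1 were the members that passed the test in these 3 fits alike. When RC4-2B replicate 1 was left out instead, ATF4, TRIB3, CHAC1 and SESN2 were called lower and 0 members higher, where 1.44% and 1.63% of all genes were called. Leaving out RC4-2B replicate 3 gave 0 calls among the members, where only 78 genes of the whole table were called. Leaving out C4-2B replicate 1, 2 or 3 also gave 0 calls among the members, where only 44, 57 and 56 genes were called.

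Without regard to the test, the groups did not overlap for 23 members, 13 with every RC4-2B library above every C4-2B library and 10 with every one below, where 17% and 17.1% of all tested genes did so. The median log2 fold change was 0.14 over the heat shock members and 0.09 over the ER stress members, beside 0.01 over all tested genes. Without RC4-2B replicate 2 these medians were 0.11 and 0.05, beside 0.00 over all genes. The median over the 7 genes of the ATF4 branch was -0.73 with all libraries and -0.59 without RC4-2B replicate 2.

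**Figure D3:**
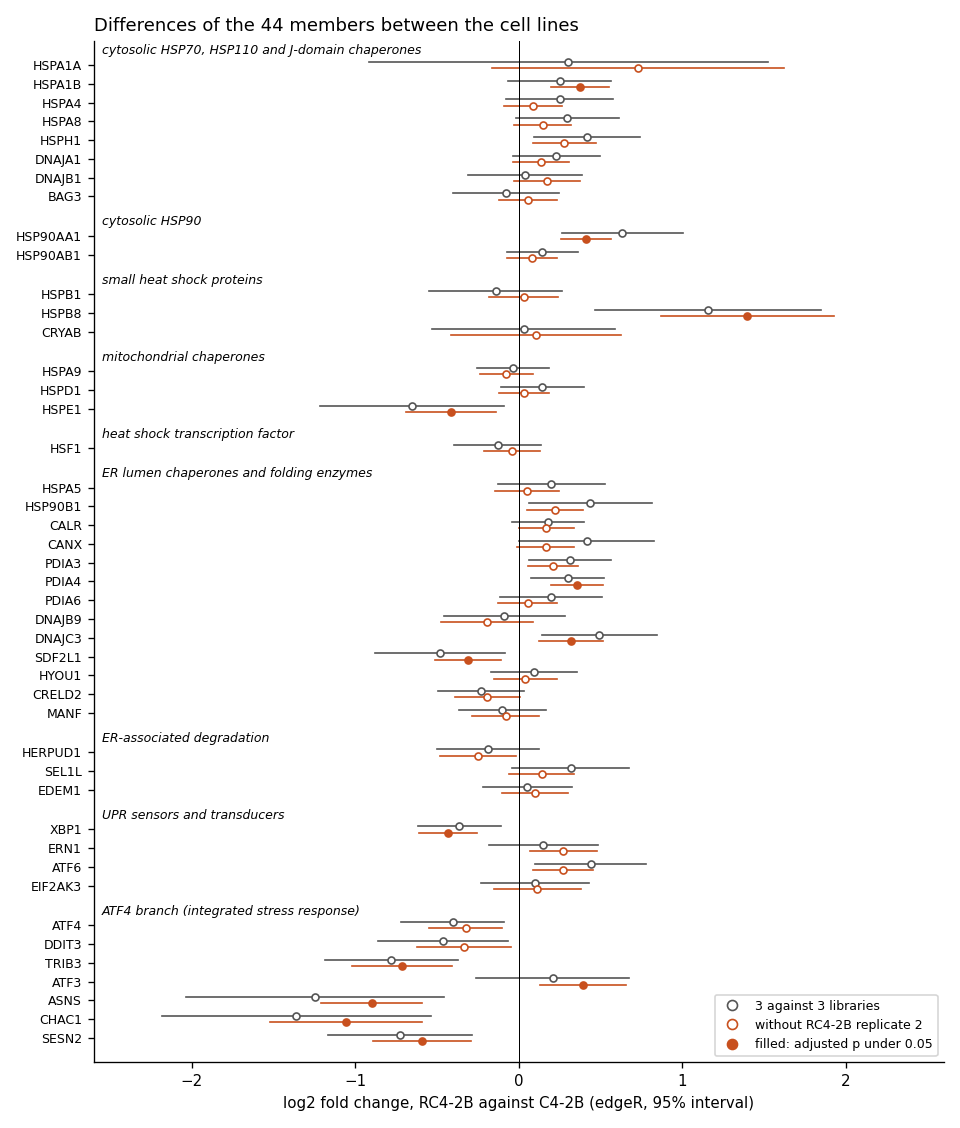
Log2 fold change (x axis, RC4-2B against C4-2B) of each member with its 95% interval from edgeR, grouped by role. Grey is the fit of 3 against 3 libraries, in which no point is filled, and red the fit without RC4-2B replicate 2, in which 13 points are filled because the adjusted p-value was under 0.05. The genes of the ATF4 branch other than ATF3 lie left of 0 in both fits.

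Values per library are given below as normalised CPM, in the order of replicates 1, 2 and 3 within the parental line C4-2B and then within the resistant line RC4-2B. HSP90AA1 (ENSG00000080824, chr14:102080738-102139699), the stress-inducible form of the cytosolic chaperone that stabilises kinases and steroid receptors, had 2841, 3022 and 2873 CPM in the parental and 3825, 5801 and 3914 CPM in the resistant libraries. The 3 RC4-2B libraries all lay above the C4-2B range, and replicate 2 was the highest by far. The means were 2912 ± 96.7 CPM for the parental and 4513 ± 1116 CPM for the resistant line (SD, n = 3), and the difference missed the threshold with all libraries (edgeR, log2 fold change 0.63, SE 0.16, adjusted p = 0.0881) and passed it without replicate 2 at 0.41 (SE 0.07, adjusted p = 0.00192). Its constitutive counterpart HSP90AB1 had 3779, 3724 and 3623 CPM in the parental and 3952, 4446 and 3888 CPM in the resistant libraries, also without overlap, and a log2 fold change of 0.14 (95% interval -0.07 to 0.36) with all libraries and 0.08 (95% interval -0.07 to 0.23) without replicate 2. The ratio of HSP90AA1 to HSP90AB1 by FPKM was 0.427, 0.461 and 0.450 in the parental libraries, against 0.550, 0.741 and 0.572 in the resistant ones. All 3 ratios of RC4-2B thus lay above those of C4-2B.

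Of the 8 cytosolic HSP70, HSP110 and J-domain genes, 7 had a log2 fold change above 0 with all libraries, where 7627 of 15054 tested genes did. Without replicate 2 all 8 were above 0, where the median over all tested genes was 0.00, and 1 of the 8 was HSPA1A, on 11 to 23 counts a library. In that fit 1 gene of the 8 passed the test, where 6.5% of all genes were called higher. That gene was HSPA1B (ENSG00000204388, chr6:31827735-31830255), a heat-inducible HSP70, with 122, 124 and 133 CPM in the parental and 156, 123 and 172 CPM in the resistant libraries. RC4-2B replicates 1 and 3 were above every C4-2B library and replicate 2 was among them. Without replicate 2 its log2 fold change was 0.37 (SE 0.08, adjusted p = 0.00924) and with it 0.25. HSPA1A, which encodes nearly the same protein, held 0.231% to 0.916% of the counts of the pair. Its log2 fold change was 0.30 (95% interval -0.92 to 1.52) with all libraries and 0.73 (95% interval -0.16 to 1.62) without replicate 2. Since 72.4% of the 100-base windows of the HSPA1A transcript are found unchanged in HSPA1B, the counts of this pair are uncertain as to which copy they came from, and 36.55% of the exon bases of HSPA1B also lie in another annotated gene on its strand. The constitutive HSPA8 had 2777, 2791 and 3036 CPM in the parental and 2936, 4223 and 3406 CPM in the resistant libraries, with the lowest RC4-2B library inside the C4-2B range and a log2 fold change of 0.30 (95% interval -0.02 to 0.61) with all libraries and 0.14 (95% interval -0.03 to 0.32) without replicate 2. HSPH1, an HSP110 that exchanges the nucleotide of HSP70, had 404, 461 and 467 CPM in the parental and 492, 702 and 586 CPM in the resistant libraries, without overlap, and a log2 fold change of 0.42 with all libraries (edgeR, adjusted p = 0.159) and 0.28 (adjusted p = 0.0557) without replicate 2. The J-domain genes DNAJA1 and DNAJB1, which deliver clients to HSP70, had log2 fold changes of 0.23 with and 0.13 without replicate 2 and of 0.04 with and 0.17 without replicate 2, and HSPA4, another HSP110, of 0.25 with and 0.09 without replicate 2. BAG3, a nucleotide exchange factor that links HSP70 to autophagy, had -0.08 with all libraries and 0.06 without replicate 2.

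HSPB8, a small heat shock protein that works with BAG3 in the selective autophagy of misfolded proteins, had the largest log2 fold change of the heat shock members on a low level (ENSG00000152137, chr12:119178642-119221131). Its values were 2.15, 1.64 and 1.65 CPM in the parental and 4.44, 2.62 and 5.11 CPM in the resistant libraries. All RC4-2B libraries were above all C4-2B libraries, with replicate 2 the nearest to them. The log2 fold change was 1.16 with all libraries (edgeR, SE 0.30, adjusted p = 0.0917) and 1.40 (SE 0.25, adjusted p = 0.00206) without replicate 2. The abundant HSPB1 had 1486, 1345 and 1327 CPM in the parental and 1600.2, 936 and 1232 CPM in the resistant libraries, with overlap between the lines, and its log2 fold change of -0.14 turned to 0.03 without replicate 2 and to 0.31 with the GC trend removed. CRYAB, a small heat shock protein best known from lens and muscle, had 4.30, 2.94 and 4.78 CPM in the parental and 4.82, 3.65 and 3.82 CPM in the resistant libraries, with overlap and a log2 fold change of 0.03 (95% interval -0.53 to 0.59) with all libraries and 0.11 (95% interval -0.42 to 0.63) without replicate 2, which turned to -0.05 with the GC trend removed.

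In the mitochondria, HSPD1 (HSP60) and HSPE1 (HSP10) form 1 folding chamber and lid, and their genes lie head to head on chromosome 2. HSPE1 (ENSG00000115541, chr2:197499994-197503457) had 116, 91.6 and 91.2 CPM in the parental and 85.8, 40.9 and 63.7 CPM in the resistant libraries, so that every RC4-2B library was below every C4-2B library and replicate 2 was the lowest. The log2 fold change was -0.65 with all libraries (edgeR, adjusted p = 0.188) and -0.42 (SE 0.13, adjusted p = 0.0474) without replicate 2. HSPE1 did not pass with the GC trend removed (-0.80, edgeR, adjusted p = 0.117). HSPD1 had 1744, 1768 and 1749.8 CPM in the parental and 1789, 2232 and 1796 CPM in the resistant libraries, with the RC4-2B libraries just above. Its log2 fold change was 0.14 (95% interval -0.11 to 0.40) with all libraries and 0.03 (95% interval -0.12 to 0.18) without replicate 2, and it turned to -0.06 with the GC trend removed. The ratio of HSPE1 to HSPD1 by FPKM was 0.143, 0.111 and 0.112 in the parental libraries, against 0.103, 0.0393 and 0.0761 in the resistant ones. HSPE1 shares 10.5% of its exon bases with HSPE1-MOB4 on the same strand. It has 26 pseudogenes in the table, which together held at most 0.837% of its own count, and how reads matching several genes were counted is not given in the sources used here. HSPA9 (mortalin), the mitochondrial HSP70, had a log2 fold change of -0.03 (95% interval -0.25 to 0.19) with all libraries and -0.08 (95% interval -0.24 to 0.09) without replicate 2. HSF1, the transcription factor of the response, had 161, 148 and 149 CPM in the parental and 151, 122 and 145 CPM in the resistant libraries, with overlap. Its log2 fold change was -0.13 with all libraries, -0.04 without replicate 2 and 0.39 with the GC trend removed (adjusted p = 0.188, edgeR), so its direction depended on that correction.

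**Figure D4:**
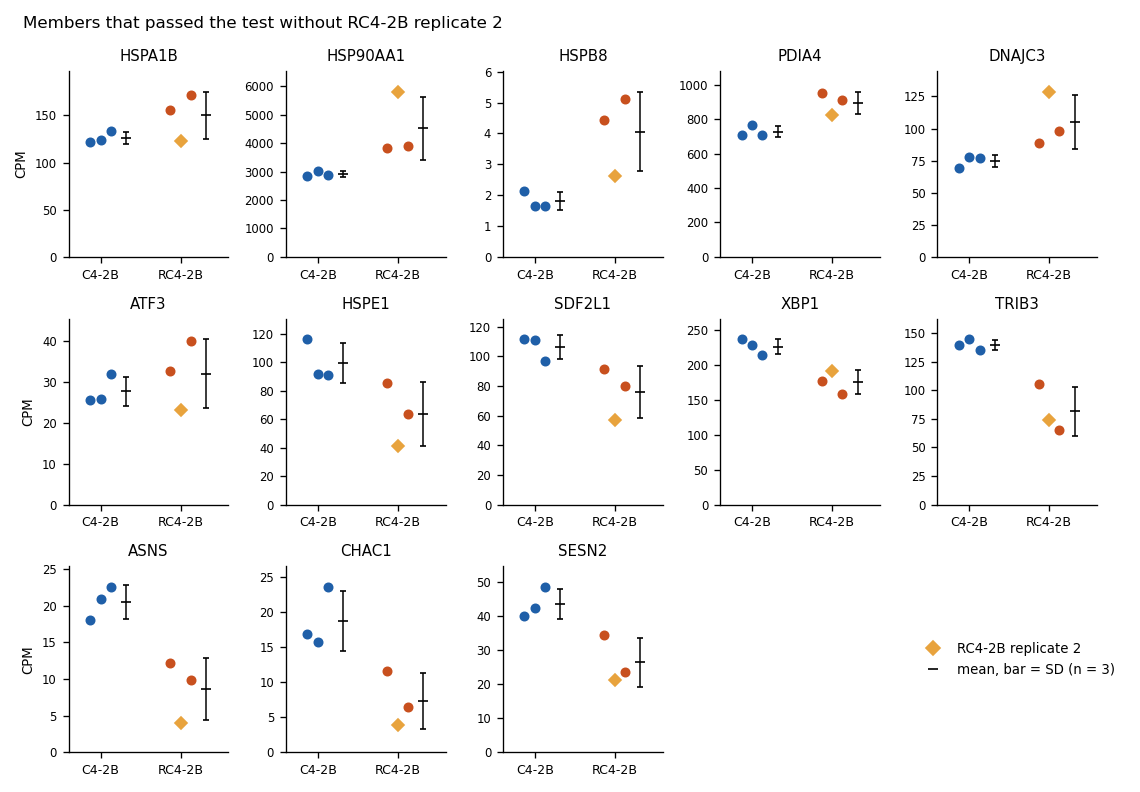
CPM (y axis, from 0) in each library for the 13 members that passed the test without RC4-2B replicate 2. Blue points are C4-2B, red points RC4-2B replicates 1 and 3 and yellow diamonds RC4-2B replicate 2. Bars give the mean and SD of all 3 libraries of a line. The diamond lies on the same side of the C4-2B points as the red points in all genes but HSPA1B and ATF3.

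Of the 13 ER lumen chaperones and folding enzymes, 9 had a log2 fold change above 0 and 4 below 0 with all libraries. Of all 15054 tested genes, 7627 were above 0. Without replicate 2, 2 of the 13 were called higher and 1 lower, where 6.5% and 6.02% of all genes were called. PDIA4 (ENSG00000155660, chr7:149003062-149028641), a protein disulfide isomerase, had 706, 767 and 710.2 CPM in the parental and 949, 826 and 911 CPM in the resistant libraries. All RC4-2B libraries were higher, with replicate 2 the lowest of them. The log2 fold change was 0.30 with all libraries (edgeR, adjusted p = 0.152) and 0.35 (SE 0.07, adjusted p = 0.00644) without replicate 2. DNAJC3 (p58IPK), an ER J-domain protein that also restrains PERK, had 69.0, 78.1 and 76.7 CPM in the parental and 88.4, 129 and 97.9 CPM in the resistant libraries, again without overlap. Its log2 fold change was 0.49 with all libraries (edgeR, adjusted p = 0.136) and 0.32 (SE 0.09, adjusted p = 0.0319) without replicate 2, and the gene did not pass with the GC trend removed (adjusted p = 0.0719). SDF2L1 (ENSG00000128228, chr22:21642261-21644298), a component of the chaperone network around BiP, had 111, 111 and 96.9 CPM in the parental and 91.4, 56.9 and 80.1 CPM in the resistant libraries and was lower in every RC4-2B library. Its log2 fold change was -0.48 with all libraries, and it was called without replicate 2, at -0.31 (SE 0.10, adjusted p = 0.0445), but with the GC trend removed its log2 fold change was 0.00, and its transcript has 65.1% GC.

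HSPA5 and HSP90B1, which bear the ER stress element shown above, did not pass edgeR's test with all libraries or without replicate 2. HSPA5, the BiP gene that is the usual gauge of this response, had 1139.7, 1287 and 1212 CPM in the parental and 1386, 1663 and 1127 CPM in the resistant libraries. Its RC4-2B values lay on both sides of the C4-2B values, and the log2 fold change was 0.20 (95% interval -0.13 to 0.53) with all libraries and 0.05 (95% interval -0.14 to 0.25) without replicate 2. HSP90B1 (GRP94), the ER form of HSP90, had 1074, 1161 and 1145 CPM in the parental and 1404, 1951 and 1221 CPM in the resistant libraries. All 3 RC4-2B libraries were higher, with a log2 fold change of 0.44 with all libraries (edgeR, adjusted p = 0.189) and 0.22 (adjusted p = 0.0873) without replicate 2. CALR (calreticulin), which holds glycoproteins until they are folded, had 1896, 1852 and 1787 CPM in the parental and 2223, 2122 and 1924 CPM in the resistant libraries, without overlap and with a log2 fold change of 0.18 (95% interval -0.04 to 0.40) with all libraries and 0.17 (95% interval -0.0017 to 0.34) without replicate 2. Its membrane-bound counterpart CANX (calnexin) had a log2 fold change of 0.41 (95% interval 0.00 to 0.83) with all libraries and 0.16 (95% interval -0.01 to 0.34) without replicate 2. The disulfide isomerases PDIA3 and PDIA6 had log2 fold changes of 0.31 with and 0.21 without replicate 2 and of 0.20 with and 0.05 without replicate 2, with overlapping groups for PDIA6, of whose exon bases 25.2% lie opposite exons of ATP6V1C2. HYOU1, a large HSP70 relative, had a log2 fold change of 0.09 with and 0.04 without replicate 2, and DNAJB9, a J-domain target of spliced XBP1, of -0.09 with and -0.20 without replicate 2. CRELD2, an ER protein induced by stress, had -0.23 with and -0.19 without replicate 2, and MANF, an ER protein with trophic activity, had -0.10 with and -0.08 without replicate 2. CRELD2 alone of these 4 had groups that did not overlap.

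ER-associated degradation returns misfolded protein to the cytosol for the proteasome, and the groups overlapped for all 3 of its members. HERPUD1, which organises the export complex, had 130.0, 149.9 and 153 CPM in the parental and 137, 138 and 106 CPM in the resistant libraries and a log2 fold change of -0.19 (95% interval -0.50 to 0.13) with all libraries and -0.25 (95% interval -0.48 to -0.02) without replicate 2. SEL1L, the adaptor of the ubiquitin ligase in that complex, had 87.6, 102 and 99.8 CPM in the parental and 112, 148 and 101 CPM in the resistant libraries and a log2 fold change of 0.32 (95% interval -0.04 to 0.68) with all libraries and 0.14 (95% interval -0.06 to 0.34) without replicate 2, and replicate 2 of RC4-2B was well above the other libraries. EDEM1, which trims the sugars of glycoproteins to be degraded, had 0.05 (95% interval -0.22 to 0.32) with all libraries and 0.10 (95% interval -0.11 to 0.30) without replicate 2, which turned to -0.05 with the GC trend removed.

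XBP1 (ENSG00000100219, chr22:28794555-28800597) encodes the transcription factor that is activated when IRE1 splices its mRNA. It had 236, 228 and 214 CPM in the parental and 177, 192 and 158 CPM in the resistant libraries, with every RC4-2B library below every C4-2B library. The log2 fold change was -0.36 with all libraries (edgeR, adjusted p = 0.128), -0.43 (SE 0.08, adjusted p = 0.0038) without replicate 2 and -0.52 (adjusted p = 0.0126) with the GC trend removed. The log2 fold changes of the 3 sensors were above 0 in both edgeR fits, and none passed the test in either. ATF6 had 49.0, 48.4 and 49.2 CPM in the parental and 58.0, 81.0 and 59.7 CPM in the resistant libraries, without overlap, and a log2 fold change of 0.44 with all libraries (edgeR, adjusted p = 0.158) and 0.27 (adjusted p = 0.0537) without replicate 2. ERN1 had a log2 fold change of 0.15 (95% interval -0.18 to 0.48) with all libraries and 0.27 (95% interval 0.07 to 0.48) without replicate 2. EIF2AK3 had one of 0.10 (95% interval -0.23 to 0.43) with all libraries and 0.11 (95% interval -0.15 to 0.38) without replicate 2, which turned to -0.03 with the GC trend removed.

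In the ATF4 branch, 6 of 7 genes had every RC4-2B library below every C4-2B library, beside 17.1% of all tested genes. Without replicate 2, 4 of them were called lower, where 6.02% of all genes were. With the GC trend removed, 2 of the 7 were called lower, where 3.25% of all genes were, and the group median was -0.47. CHAC1 (ENSG00000128965, chr15:40952962-40956519), which degrades glutathione, had 16.8, 15.7 and 23.5 CPM in the parental and 11.6, 3.82 and 6.46 CPM in the resistant libraries. Its means were 18.7 ± 4.22 CPM for the parental and 7.28 ± 3.94 CPM for the resistant line (SD, n = 3). The log2 fold change was -1.36 with all libraries (edgeR, SE 0.36, adjusted p = 0.0949), and -1.06 (SE 0.22, adjusted p = 0.00569) without replicate 2. ASNS (ENSG00000070669, chr7:97852118-97872542), asparagine synthetase, had 18.0, 20.9 and 22.5 CPM in the parental and 12.1, 3.93 and 9.87 CPM in the resistant libraries, with replicate 2 far below the other RC4-2B libraries. The log2 fold change was -1.25 with all libraries (edgeR, SE 0.35, adjusted p = 0.105), -0.90 (SE 0.14, adjusted p = 0.000972) without replicate 2 and -1.35 (adjusted p = 0.0378) with the GC trend removed. ASNS counts are uncertain in level, because 49.3% of its exon bases also belong to another annotated gene on the same strand, and its pseudogene ASNSP1 held 46, 43 and 50 counts in the parental and 36, 34 and 24 counts in the resistant libraries. ASNS itself held 302, 370 and 396 counts in the former and 194, 69 and 168 in the latter.

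TRIB3 (ENSG00000101255, chr20:362835-397559), a pseudokinase that feeds back on ATF4, had 139.6, 144 and 135 CPM in the parental and 106, 73.7 and 64.8 CPM in the resistant libraries. Its log2 fold change was -0.78 with all libraries (edgeR, SE 0.18, adjusted p = 0.0654), and -0.71 (SE 0.14, adjusted p = 0.00481) without replicate 2, and it did not pass with the GC trend removed (adjusted p = 0.156). SESN2, a sestrin that restrains mTORC1, had 39.9, 42.4 and 48.6 CPM in the parental and 34.5, 21.2 and 23.5 CPM in the resistant libraries. Its log2 fold change was -0.73 with all libraries (edgeR, adjusted p = 0.0965) and -0.59 (adjusted p = 0.0131) without replicate 2. SESN2 did not pass with the GC trend removed (-0.47, edgeR, adjusted p = 0.0583). ATF4 itself had 632, 637 and 598 CPM in the parental and 573, 416 and 421.2 CPM in the resistant libraries. The 3 RC4-2B values were below those of C4-2B, and the log2 fold change was -0.40 with all libraries (edgeR, adjusted p = 0.162) and -0.32 (adjusted p = 0.0545) without replicate 2. DDIT3 (CHOP), the factor linked to cell death under lasting ER stress, had 15.4, 16.8 and 15.2 CPM in the parental and 13.6, 9.29 and 11.5 CPM in the resistant libraries, and a log2 fold change of -0.46 with all libraries (edgeR, adjusted p = 0.185) and -0.33 (adjusted p = 0.121) without replicate 2. DDIT3 shares 27.2% of its exon bases with MARS1 on the opposite strand, so its counts are uncertain. ATF3 was the exception of this group, with 25.5, 25.7 and 31.8 CPM in the parental and 32.8, 23.1 and 39.9 CPM in the resistant libraries. Replicates 1 and 3 of RC4-2B were above the C4-2B libraries and replicate 2 below them, and the log2 fold change was 0.21 with all libraries (edgeR, adjusted p = 0.546) and 0.39 (SE 0.12, adjusted p = 0.0493) without replicate 2. ATF3 did not pass with the GC trend removed (0.13, edgeR, adjusted p = 0.706).

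A further 116 genes of the same machinery were listed in 5 groups, and 110 of them were tested. With all libraries edgeR called 2 higher and 4 lower, where 1.08% of all genes were called higher and 0.903% lower. Those higher were HSPA4L, an HSP110 relative, with 38.7, 42.8 and 42.4 CPM in the parental and 63.8, 99.2 and 70.0 CPM in the resistant libraries (log2 fold change 0.91, SE 0.17, adjusted p = 0.0395), and NPLOC4, a cofactor of the p97 segregase that extracts proteins in ER-associated degradation, with 198, 197 and 186 CPM in the parental and 291, 310.2 and 287 CPM in the resistant libraries (log2 fold change 0.61, SE 0.10, adjusted p = 0.0203). The 4 lower genes were all from the group of other UPR and integrated stress response genes. GDF15, a stress cytokine, had 96.7, 96.8 and 114 CPM in the parental and 43.2, 20.4 and 34.7 CPM in the resistant libraries (log2 fold change -1.65, SE 0.25, adjusted p = 0.0178). CTH, the cystathionine lyase that makes cysteine, had 22.0, 23.7 and 25.3 CPM in the parental and 12.8, 9.12 and 8.46 CPM in the resistant libraries (log2 fold change -1.23, SE 0.18, adjusted p = 0.0178). SLC7A5, an importer of large neutral amino acids, had 545, 546 and 493 CPM in the parental and 377, 293 and 330.2 CPM in the resistant libraries (log2 fold change -0.66, SE 0.12, adjusted p = 0.0299), and its call was lost with the GC trend removed (adjusted p = 0.146). NARS1, asparaginyl-tRNA synthetase, had 331, 338 and 333 CPM in the parental and 221, 243 and 213 CPM in the resistant libraries (log2 fold change -0.57, SE 0.10, adjusted p = 0.0281). Each of these 6 genes had groups that did not overlap. All 6 kept their direction, but missed the threshold when RC4-2B replicate 3 or any 1 C4-2B library was left out (adjusted p between 0.0695 and 0.234), and passed it without RC4-2B replicate 1 or 2. Without replicate 2 the log2 fold changes were 0.70 for HSPA4L, 0.58 for NPLOC4, -1.40 for GDF15, -1.16 for CTH, -0.58 for SLC7A5 and -0.62 for NARS1.

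The group of other UPR and integrated stress response genes had 31 tested genes. Of these, 15 had every RC4-2B library below and 4 every one above the C4-2B libraries, beside 17.1% and 17% of all tested genes. The median log2 fold change of the group was -0.28. Without replicate 2, 18 of the 31 (58.1%) were called lower and 2 higher, with a median of -0.41, where 6.02% and 6.5% of all genes were called. This group, like the others, was chosen with earlier results of these data known. Among the other 4 groups, 7 of 30 other cytosolic chaperones and co-chaperones were higher without overlap and 6 lower. For other ER folding factors it was 7 of 25 higher and 4 lower, and for other ER-associated degradation genes 6 of 16 higher and 0 lower. Of the 8 subunits of the chaperonin TRiC, 0 were higher without overlap and 1 lower. Without replicate 2, 3 of 30 other cytosolic chaperones and co-chaperones were called higher and 2 lower, 3 of 25 other ER folding factors higher and 2 lower, 2 of 16 other ER-associated degradation genes higher and 0 lower, and 0 of 8 subunits of the cytosolic chaperonin TRiC in either direction. In the groups without a call with all libraries, the smallest p-values were those of P4HB, another protein disulfide isomerase, and of CCT4 in TRiC. P4HB had a log2 fold change of 0.43 with all libraries (edgeR, adjusted p = 0.0657) and 0.36 (adjusted p = 0.00443) without replicate 2, and CCT4 one of -0.17 with all libraries (edgeR, adjusted p = 0.346) and -0.14 (adjusted p = 0.298) without replicate 2.

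**Figure D5:**
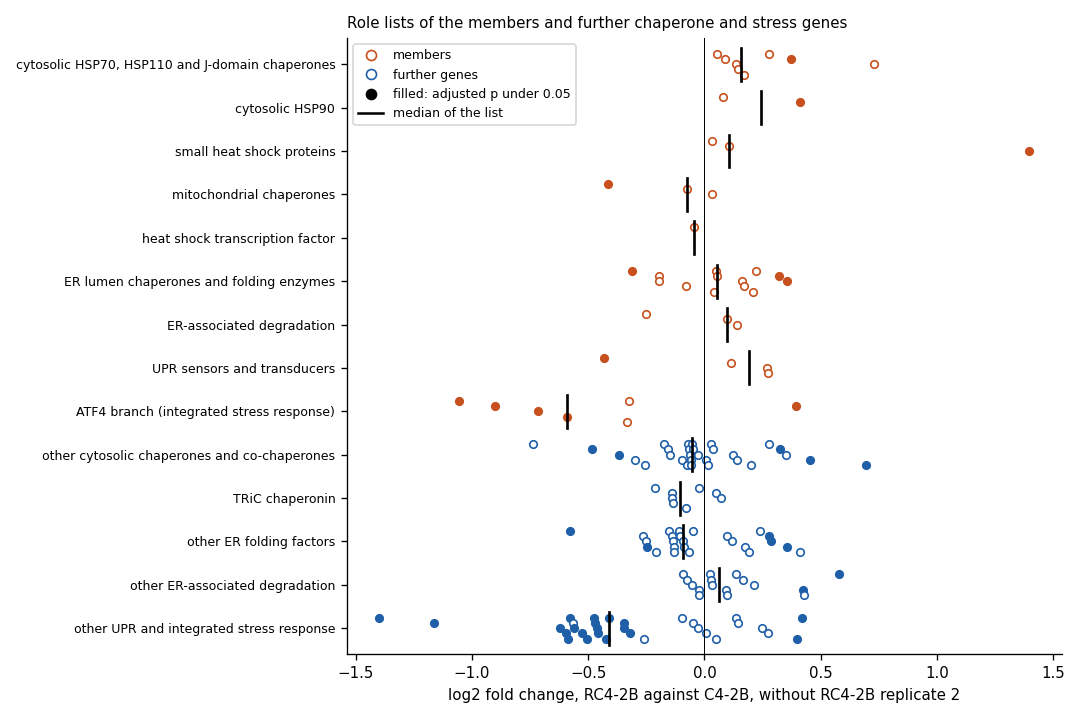
Log2 fold change (x axis, RC4-2B against C4-2B, without RC4-2B replicate 2) of each tested gene in the 9 role groups of the members (red) and the 5 groups of further genes (blue). Filled points had an adjusted p-value under 0.05 in edgeR and black bars are group medians. The ATF4 branch and the other UPR and integrated stress response genes have medians of -0.59 and -0.41, while those of the other groups lie between -0.11 and 0.25.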

How the data were processed

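RNAseq of 3 C4-2B and 3 RC4-2B libraries was analysed. The submitters' processing notes name STAR for mapping and the GRCh38 genome, and the deposited counts are whole, unnormalized reads per gene. The deposited FPKM values are the authors' counts scaled to gene length and library total. The counting program, its use of strand and the treatment of reads that match several genes are not given in the sources used here.

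Counts were tested in R 4.3.3 with edgeR 4.0.16 (TMM scaling, filterByExpr with its minimum of 10 counts, quasi-likelihood test without covariates, Benjamini-Hochberg adjustment over all tested genes, threshold 0.05). CPM values are TMM-scaled and SD is over libraries. p-values measure the spread between libraries that the labels call biological replicates. The 6 libraries differed from each other within a line by more than sampling noise (chi-square per gene 3.17 to 58.7). The GC trend was removed with an offset, a lowess curve (span 0.2) over the GC content of the longest GENCODE transcript, which removes any GC trend between the lines too. Alternatives were DESeq2 1.42.0, other scalings and filters, limma 3.58.1 on log2 FPKM values with a pseudocount of 1 or 0.1 (with and without a minimum of 1 FPKM in 3 libraries), voom with sample weights, the replicate number as a block and each library left out. The fits were also tested on simulated data. The settings and outcome of that test are not given here, so it does not show how the fits handle a library with a GC trend.

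The members and lists were chosen with earlier results of these data known. Values in every library are given for members called with all libraries or without RC4-2B replicate 2, and for the highest and most changed member of each role. CRYAB, HSPA5, HSP90B1 and DDIT3 were given by library too, for their roles, after their values were seen. Of the further genes, those called and, in a list with none, the gene with the smallest p-value are named. Symbols of 5 tRNA synthetase genes were matched by Ensembl ID.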

Additional observations from a re-analysis of the deposited data

How the results depend on the processing

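The number of members called higher and lower, 0 and 0 with all libraries, was also 0 and 0 with RLE or upper-quartile scaling, a mean of at least 10 counts, robust estimation, limma on FPKM values and the replicate number as a block. Few genes of the whole table were called in these fits. They were 301 with RLE scaling, 317 with upper-quartile scaling, 290 with the mean count filter, 289 with robust estimation and 36 to 104 with limma. Each other count is given beside the share of all tested genes called higher and lower. It was 2 and 4 with DESeq2 (3.28% and 2.64%), 3 and 5 without a filter on low counts (2.07% and 2.22%), 4 and 3 with the GC correction (4.36% and 3.25%), and 9 and 11 with sample quality weights in voom (9.7% and 8.98%). It was 4 and 7 with the GC correction and RC4-2B replicate 2 left out (6.74% and 6.59%), and 7 and 8 with DESeq2 and that library left out (5.96% and 6.34%), an alternative chosen after seeing the data. Without that library, adding the GC correction to edgeR lost the calls of DNAJC3, SDF2L1 and ATF3 and gained that of ATF4. Leaving out each library in turn gave 0 to 6 members higher and 0 to 7 lower, where 44 to 1925 genes of the whole table were called. The correlations of the deviations of same-numbered libraries of the 2 lines were 0.32, 0.18 and -0.07. Those of differently numbered libraries were between -0.29 and 0.17. With 3 libraries a line, these values do not settle whether the replicate numbers pair the libraries. With the replicate block 129 genes of the whole table were called, and with the replicate block and the GC correction 3 members were called higher and 4 lower, where 4.26% and 3.75% of all genes were.

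The median log2 fold change of the heat shock members was between 0.10 and 0.19 under every alternative. That of the ER stress members was 0.00114 with the GC correction, -0.00812 with the replicate block and the GC correction, -0.0363 with voom, 0.00426 with the GC correction and RC4-2B replicate 2 left out, and 0.0117 to 0.121 when each library was left out in turn. The sign turned under at least 1 alternative for 6 of the 28 members described by library and for 8 of the other 16. HSPB1 was at 0.31 with the GC correction, 0.29 with the replicate block added, 0.17 with the GC correction and 0.0271 with DESeq2 when RC4-2B replicate 2 was left out, and -0.350 to 0.0311 over the libraries left out in turn. HSPD1 was at -0.0557 with the GC correction, -0.0563 with the replicate block added and -0.0436 without RC4-2B replicate 2 as well. HSF1 was at 0.39, 0.35 and 0.11 under the same 3 alternatives. SDF2L1 was at 0.00114 with the GC correction, where its main value of -0.48 was below 0. HSPA5 was at -0.0363 with voom. CRYAB was at -0.0508 with the GC correction, -0.0366 with the replicate block added and -0.153 to 0.173 over the libraries left out in turn, below 0 without C4-2B replicate 2 or RC4-2B replicate 1. HSP90B1 passed the threshold without a filter on low counts (0.43, edgeR adjusted p = 0.0443). The cause of these moves was not tested. Below 0.170 to 0.188 CPM, the level of 3 counts, changes were not detectable at this depth.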
